A study of Danio rerio with 16 samples.

Results

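The genes that encode heat shock proteins, J proteins and chaperonins were examined in dissected zebrafish hearts. Members were taken by symbol: the hspa, hspb and hsp70 families, *hsp90ab1* and *hsp90b1*, *hspd1* and *hspe1*, the dnaja, dnajb and dnajc families, the cct and *tcp1* subunits of the cytosolic chaperonin, and the cryab genes. The symbols of 86 of 15419 counted genes matched, and 58 of these were assigned to the cytosol, 15 to the endoplasmic reticulum (ER), 10 to mitochondria and 3 to no compartment. Assignment was by the textbook location of the protein or its mammalian orthologue. The cytosol class holds all remaining chaperones, so it includes proteins of the nucleus and of vesicles, which are counted as cytosolic below. The 3 unassigned symbols, *tcp11l1*, *tcp11l2* and *hspbap1*, match by name only and do not encode chaperones.

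RNA-sequencing was performed on hearts collected at 48 h post-fertilization (hpf) from rbfox1l-/-; rbfox2-/- double knock-out (DKO) embryos and from sibling control (CTRL) embryos, with 8 libraries in each group. The mutants carry frameshifting deletions made by CRISPR-Cas9, *rbfox1l* chb5 and *rbfox2* chb6, and both encode RNA-binding proteins that regulate splicing in muscle. Embryos of both groups were of the Tubingen strain and carried a myl7:GFP reporter, which the myl7 promoter drives in cardiomyocytes only, and were anaesthetised with Tricaine for dissection. Each library was made from a pool of 35 to 70 hearts, so the libraries contain every cell type of the heart and whatever adhered to it, and p-values measure the spread between pools.

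Molecular chaperones bind unfolded segments of other proteins and help them to fold. Hsp70 proteins do this in cycles of ATP hydrolysis that are started by J proteins (Hsp40) and reset by nucleotide exchange factors, Hsp90 acts on proteins that are already partly folded, and chaperonins enclose a client in a barrel, formed by Hsp60 with its lid Hsp10 in mitochondria and by the CCT complex in the cytosol, where actin and tubulin are its best-known clients. Small heat shock proteins need no ATP, hold unfolded proteins in solution and are abundant in striated muscle, where several bind the sarcomere or the actin cytoskeleton.

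Reads on genes totalled 9321265 to 18783628 per DKO library and 8809208 to 12991978 per CTRL library, and the members took 1.26% to 1.62% of these reads in DKO and 1.51% to 1.73% in CTRL hearts. The targeted genes bore out the labels, since *rbfox1l* ranged from 37.7 to 93.8 CPM (read counts relative to the library total, scaled by the trimmed mean of M-values, TMM) in DKO against 261 to 666 CPM in CTRL hearts, and *rbfox2* from 23.5 to 39.6 CPM in DKO against 47.6 to 154 CPM in CTRL hearts. All 20 cardiomyocyte markers in the table were measured, and their summed level was 6721 to 16129 CPM in DKO against 15417 to 30147 CPM in CTRL hearts, with 13 of the 20 lower in DKO. The largest part of that sum was 1 gene, the natriuretic peptide gene *nppa* (mean 5494 CPM in DKO, 10046 CPM in CTRL hearts). The summed erythrocyte markers were at 58.4 to 118 CPM in DKO against 3508 to 9045 CPM in CTRL hearts, whereas epidermal markers summed to 9608 to 20804 CPM in DKO against 2546 to 11768 CPM in CTRL hearts and leukocyte markers to 455 to 1083 CPM in DKO against 337 to 607 CPM in CTRL hearts. Skeletal muscle markers summed to 215 to 575 CPM in DKO against 149 to 885 CPM in CTRL hearts, with *mylpfa*, *pvalb2* and *casq1a* at 0 reads. The part of these markers in the results on chaperones was not tested beyond the scaling on cardiomyocyte markers given at the end.

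Lower chaperone transcripts in DKO hearts were found mainly in 3 groups, the small heat shock proteins (5 of 7 tested), the mitochondrial chaperones (6 of 8) and the inducible-type Hsp70 genes (3 of 5). Those 3 Hsp70 genes are adjacent copies and not separate observations. Among the others, 1 of 14 ER genes and 1 of 8 CCT subunits passed the test, and the constitutive cytosolic genes *hspa8* and *hsp90ab1* did not. Of the 86 members 75 passed the filter on low counts and were tested by edgeR's quasi-likelihood test, with p-values adjusted by Benjamini-Hochberg over all 11750 genes that passed. At an adjusted p under 0.05, 22 of the 75 were lower in DKO (29.3%), where 13.9% of all genes were, and 2 of the 75 were higher (2.67%), where 13.2% of all genes were. With the added requirements of a change over 1.5-fold and over 5 FPKM (fragments relative to gene length and library total) in at least 1 library, 11 of 75 were downregulated (14.7%, against 4.66% of all genes) and 0 were upregulated (3.32% of all genes). Both the 22 and the 11 include *tcp11l2*, which matches by name only and does not encode a chaperone. DESeq2 also called 0 upregulated, and 4 members were higher at an unadjusted p under 0.05 in edgeR, a threshold for which no share of all genes is given here. The median log2 fold change (DKO over CTRL) was -0.18 over the 75 members and 0.02 over all genes.

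The members whose groups did not overlap were few. In 5 of the 75 (6.67%) every DKO library was below every CTRL library, against 4.38% of all genes, and in 0 was every DKO library above, against 1.29% of all genes. These 5 were *hspb11*, *hspb1*, *hspe1*, *hspd1* and *dnajc12*. By compartment the median log2 fold change was -0.17 over 50 cytosolic members (14 lower, 2 higher), -0.15 over 14 ER members (1 lower) and -0.68 over 8 mitochondrial members (6 lower).

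**Figure D1:**
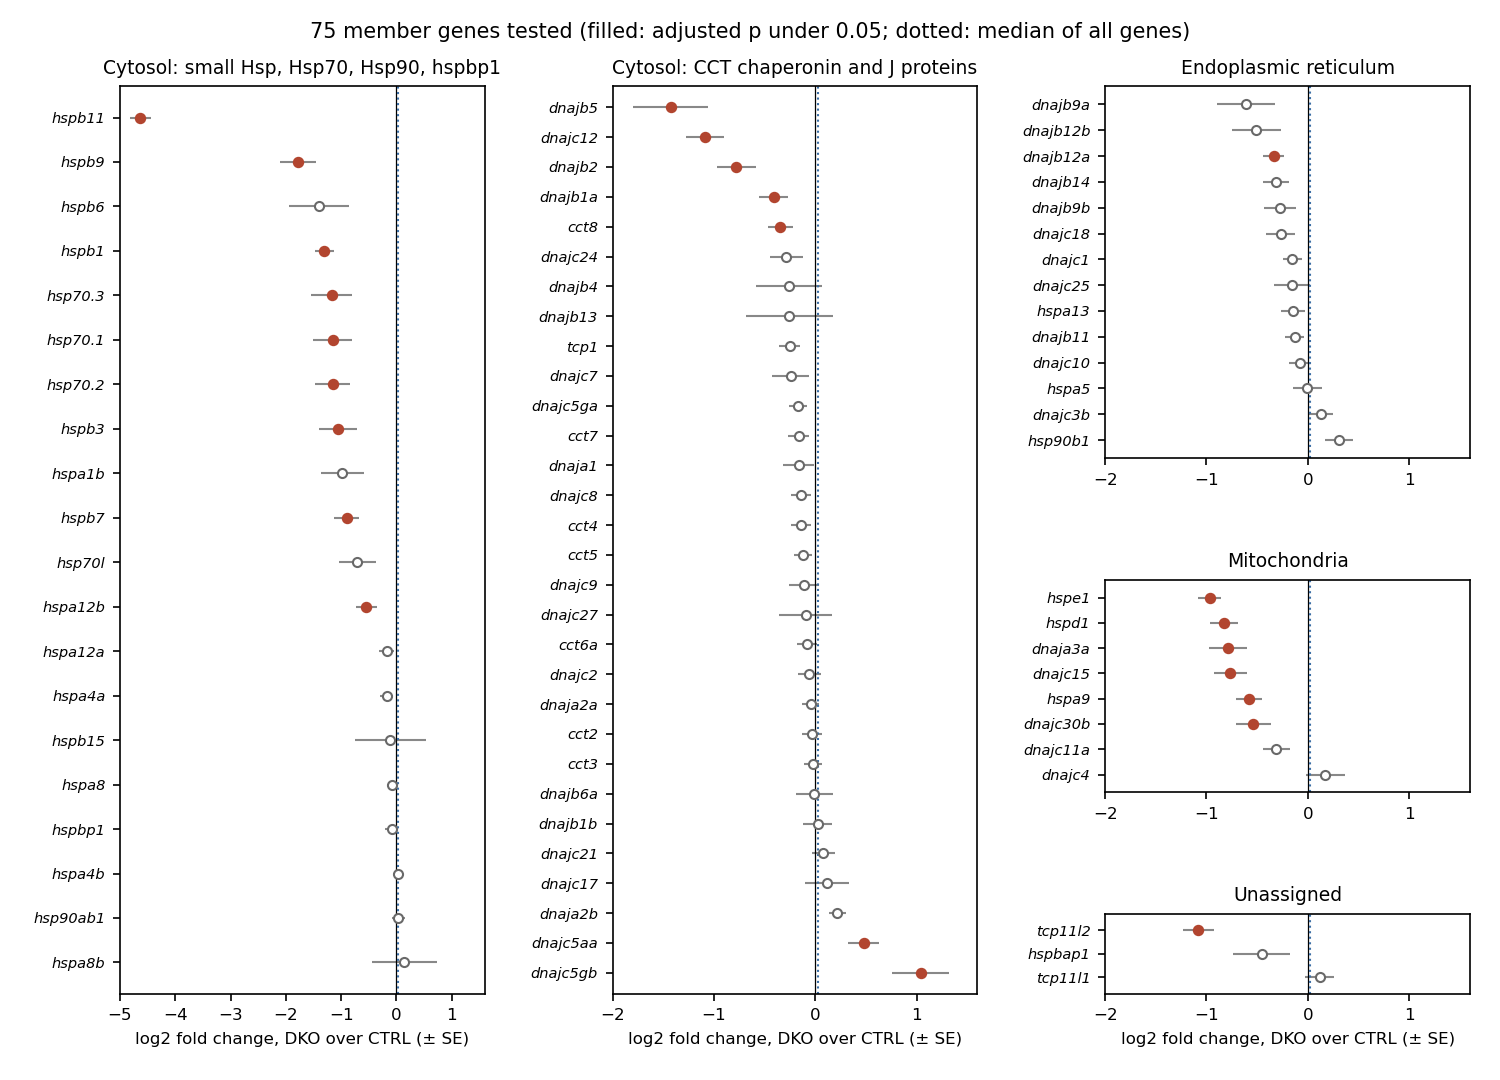
Log2 fold change (DKO over CTRL, x axis) of the 75 members tested, with bars of 1 standard error (SE), in panels by compartment and family. Filled points have an adjusted p under 0.05 in edgeR, and the dotted line is the median of all genes at 0.02. The small heat shock genes reach -4.64, 6 of 8 mitochondrial genes are filled, and most cytosolic J protein, CCT and ER genes lie near 0.

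Small heat shock protein genes were the most reduced family. All 7 that were tested had a negative log2 fold change (median -1.30), and 5 of the 7 (*hspb11*, *hspb9*, *hspb1*, *hspb3* and *hspb7*) were downregulated. The largest change was in *hspb11*, a zebrafish small heat shock gene, which had a lowest, median and highest level of 4.57, 5.69 and 10.6 CPM in DKO hearts against 99.1, 166 and 201 CPM in CTRL hearts. The groups lie far apart, with 55 to 201 reads per DKO library and 838 to 2129 reads per CTRL library. Its log2 fold change was -4.64 (SE 0.19, edgeR adjusted p = 1.66e-12), a 24.9-fold decrease that ranked 17th from the lowest among the 11750 genes.

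The abundant small heat shock genes of muscle were also lower. Levels of *hspb1* (Hsp27), which protects actin filaments, were 530, 815 and 1317 CPM (lowest, median, highest) in DKO against 1446, 2167 and 2543 CPM in CTRL hearts, a log2 fold change of -1.30 (SE 0.18, edgeR adjusted p = 1.70e-05). For *hspb7*, a cardiac small heat shock protein that binds filamin C at the sarcomere, the levels were 578, 1231 and 1888 CPM in DKO against 1567, 2077 and 3355 CPM in CTRL hearts, with a log2 fold change of -0.90 (SE 0.23, edgeR adjusted p = 6.13e-03). The 2 genes differed in that *hspb1* did not overlap between groups, whereas the upper DKO libraries of *hspb7* reached into the CTRL range.

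DKO replicates 3, 6, 7 and 8 had the 4 highest DKO levels of both *hspb1* (909 to 1317 CPM) and *hspb7* (1551 to 1888 CPM), and the same 4 libraries had the 4 highest DKO sums of cardiomyocyte markers (13497 to 16129 CPM, against 6721 to 9216 CPM in DKO replicates 1, 2, 4 and 5). As *nppa* is the largest part of that sum, the sum may follow this gene more than the number of cardiomyocytes. In pooled hearts, fewer cells of a type and less RNA per cell cannot be told apart. DKO levels of *hspb11* were highest in replicates 8 (10.6 CPM) and 3 (7.53 CPM), which had the 2 highest marker sums. They were lowest in replicate 1 (4.57 CPM), which had the lowest marker sum. The split between replicates 3, 6, 7 and 8 and the others did not hold for *hspb11*, however. Replicates 6 (6.37 CPM, marker sum 13497 CPM) and 7 (marker sum 14561 CPM) lay below replicate 5 (6.58 CPM, marker sum 8603 CPM).

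The other small heat shock genes were expressed at low levels. Levels of *hspb9*, known from testis in mammals, were 0.774, 2.46 and 4.32 CPM in DKO against 3.55, 7.25 and 14.2 CPM in CTRL hearts (log2 fold change -1.78, SE 0.33, edgeR adjusted p = 4.17e-04), and the groups overlapped at their edges. The muscle gene *hspb3* had a log2 fold change of -1.06 (edgeR adjusted p = 0.0261) from 16 to 75 reads per library. Leaving out any 1 of DKO replicates 1, 2, 4 and 5 or CTRL replicate 1 ended its call, with the adjusted p at most 0.0551. Levels of *hspb6* (Hsp20) were 0 to 1.5 CPM in DKO against 0.348 to 4.41 CPM in CTRL hearts and did not pass the test (log2 fold change -1.40, SE 0.54, edgeR adjusted p = 0.060), though DESeq2 called it lower (adjusted p = 0.0248). Neither tool called *hspb15* (-0.11, SE 0.64), which had at most 47 reads.

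**Figure D2:**
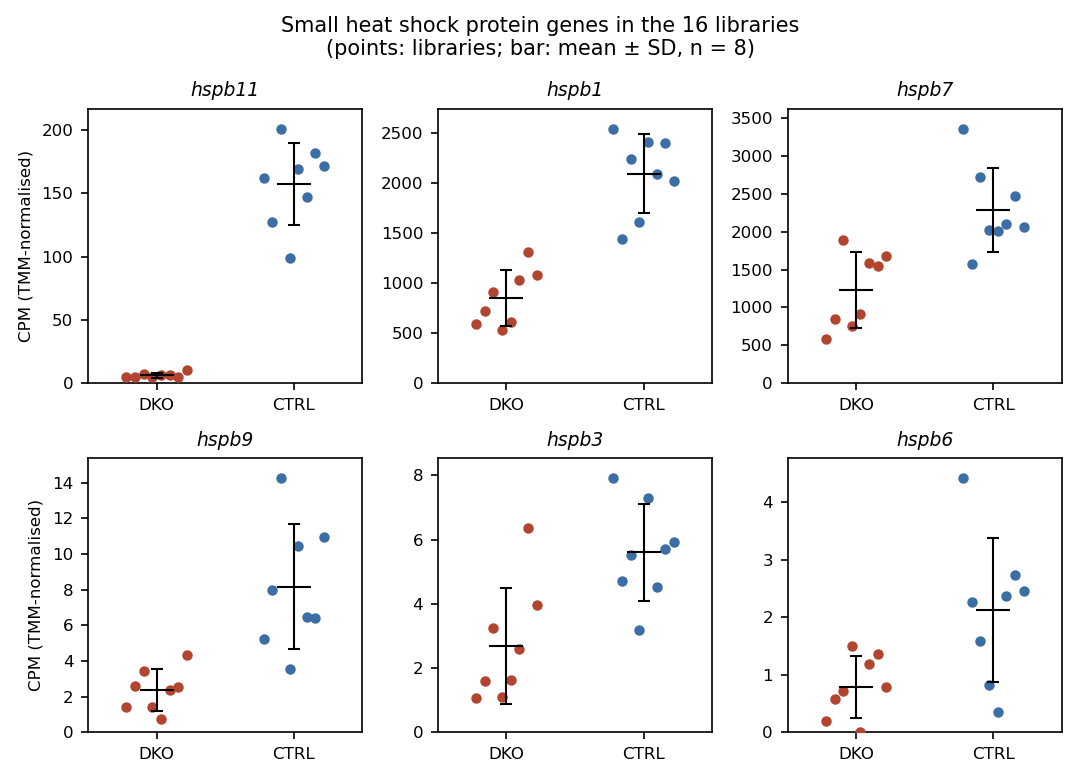
CPM (y axis, linear from 0) of 6 small heat shock genes in each library, DKO left and CTRL right, with the mean and SD of 8 libraries. DKO points of *hspb11* lie at 4.57 to 10.6 CPM, below all CTRL points at 99.1 to 201 CPM, and *hspb1* is likewise separated, whereas *hspb7*, *hspb9*, *hspb3* and *hspb6* overlap.

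Most mitochondrial chaperone genes were reduced. Of 8 tested genes 6 were lower in DKO hearts, and these include the matrix Hsp70 (*hspa9*, mortalin), which pulls proteins in through the inner membrane and folds them, both parts of the Hsp60 chaperonin (*hspd1* and *hspe1*), and 3 J proteins. Levels of *hspe1* (Hsp10) were 136, 178 and 207 CPM in DKO against 255, 358 and 433 CPM in CTRL hearts, and its log2 fold change was -0.97 (SE 0.11, edgeR adjusted p = 2.15e-06). Levels of *hspd1* (Hsp60) were 142, 182 and 226 CPM in DKO against 242, 336 and 463 CPM in CTRL hearts, and its log2 fold change was -0.83 (SE 0.14, edgeR adjusted p = 1.26e-04). In both genes every DKO library was below every CTRL library. The 2 genes are neighbours in RefSeq (assembly GRCz12tu), with 0 protein-coding genes between them and no overlap.

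The matrix Hsp70 gene *hspa9* had 294, 482 and 561 CPM in DKO against 555, 668 and 804 CPM in CTRL hearts, so that only the highest DKO library reached the lowest CTRL library. Its log2 fold change was -0.58 (SE 0.13, edgeR adjusted p = 1.84e-03), which falls just short of 1.5-fold in edgeR and passes it in DESeq2. The J proteins *dnaja3a* (Tid1, partner of *hspa9* in the matrix), *dnajc15* (of the import motor at the inner membrane) and *dnajc30b* (of the inner membrane) had log2 fold changes of -0.79, -0.77 and -0.54, and none of the 3 reached 5 FPKM. Across genes that threshold did not follow CPM. Levels of *dnajc15* were 31.3 to 74.4 CPM in DKO against 48.4 to 101 CPM in CTRL hearts, with at most 1.39 FPKM. The downregulated gene *hspb3* had at most 7.90 CPM in any library and up to 10.3 FPKM. The call of *dnajc30b* was lost without DKO replicate 4 (edgeR adjusted p = 0.0528), CTRL replicate 3 (adjusted p = 0.0626) or CTRL replicate 7 (adjusted p = 0.0533), and with scaling by library size alone (adjusted p = 0.0879). The other 2 genes did not pass, *dnajc11a*, which associates with the MICOS complex of the cristae, at -0.31 and *dnajc4* at 0.17. As with the small heat shock genes, these values stand beside cardiomyocyte markers with a median log2 fold change of -0.83.

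**Figure D3:**
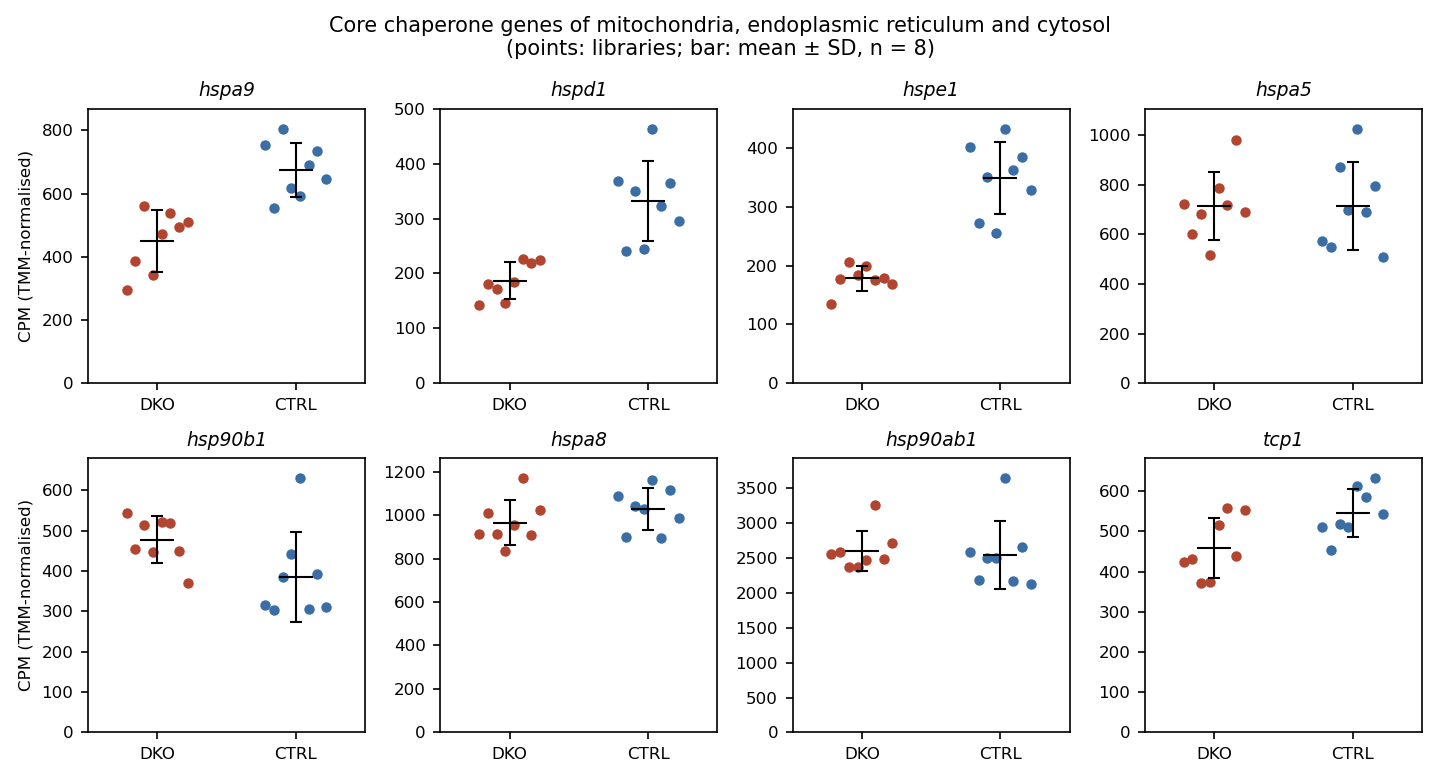
CPM (y axis, linear from 0) of 8 core chaperone genes in each library, DKO left and CTRL right, with the mean and SD of 8 libraries. The mitochondrial genes *hspa9*, *hspd1* and *hspe1* sit lower in DKO hearts, with all 8 DKO libraries of *hspd1* and *hspe1* below the CTRL libraries, whereas *hspa5*, *hsp90b1*, *hspa8*, *hsp90ab1* and *tcp1* overlap between groups.

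To compare compartments independently of the scaling of libraries, the log2 ratio of the reads of 2 core chaperones was taken within each library. The 6 ratios were chosen after the data had been seen, and the adjustment over 6 ratios does not allow for that choice. They remove library scaling only, and the part of the cell make-up of the pools in them was not tested. Mitochondrial *hspa9* was lower relative to its cytosolic counterpart *hspa8* (difference of DKO minus CTRL -0.52, two-sided exact permutation test, p = 1.24e-03, 3.73e-03 after adjustment over 6 ratios) and relative to its ER counterpart *hspa5* (difference -0.62, exact p = 3.73e-03, adjusted 7.46e-03). Among DKO libraries, *hspa9* over *hspa8* was lowest in replicates 1, 2 and 4 (-1.64, -1.39 and -1.29), with cardiomyocyte marker sums of 6721 to 9216 CPM. It was highest in replicate 3 (-0.70, marker sum 14876 CPM), but replicate 6 (-1.12, 13497 CPM) lay below replicate 5 (-1.02, 8603 CPM). The Hsp60 gene *hspd1* was lower relative to the sum of the 8 cytosolic CCT subunits, at -4.56 to -3.89 in DKO against -3.88 to -3.28 in CTRL hearts. All 8 DKO libraries were below all CTRL libraries, although the highest DKO library (-3.89) nearly met the lowest CTRL library (-3.88), and the difference was -0.68 (exact p = 0.0001554, the smallest that 8 against 8 allow, adjusted 9.32e-04).

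The other 3 ratios compared the ER with the cytosol and the 2 parts of the mitochondrial chaperonin. Between ER and cytosol, *hspa5* over *hspa8* differed by 0.10 (exact permutation p = 0.497), less than the spread between libraries (SD 0.290 in DKO and 0.289 in CTRL). The ER Hsp90 gene *hsp90b1* was higher relative to the cytosolic *hsp90ab1* by 0.30 (exact permutation p = 0.0134, adjusted 0.0200). Inside the mitochondrial chaperonin, *hspd1* over *hspe1* differed by 0.14 (exact permutation p = 0.214, adjusted 0.257), but it was more spread in DKO (-0.34 to 0.41) than in CTRL hearts (-0.17 to 0.10). No call on these 6 ratios changed when any 1 of the 16 libraries was left out.

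**Figure D4:**
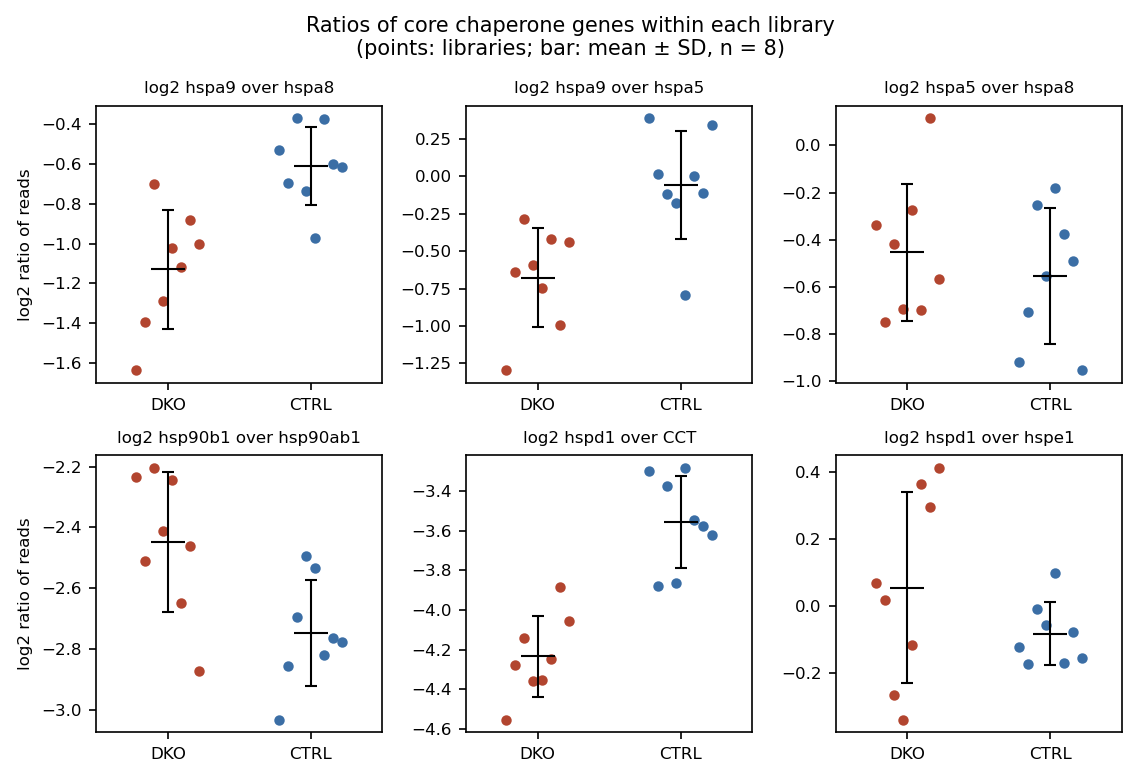
Log2 ratio of reads (y axis) of 2 core chaperones within each library, DKO left and CTRL right, with the mean and SD of 8 libraries, where CCT is the sum of 8 subunits. The ratio of *hspd1* to CCT separates the groups (-4.56 to -3.89 in DKO, -3.88 to -3.28 in CTRL), and *hspa5* over *hspa8* overlaps throughout.

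Of the 14 ER chaperone genes tested, 13 did not pass. The ER Hsp70 gene *hspa5* (BiP), the main chaperone of the secretory pathway and a target of the unfolded protein response, had 515, 706 and 982 CPM in DKO against 509, 696 and 1025 CPM in CTRL hearts, with a log2 fold change of 0.00 (SE 0.15). Levels of *hsp90b1* (Grp94) were 371, 485 and 544 CPM in DKO against 303, 351 and 629 CPM in CTRL hearts, with a log2 fold change of 0.31 (SE 0.14, edgeR adjusted p = 0.107). CTRL replicate 5 held the highest level of both genes in CTRL hearts and of 6 of the 14 ER members. Without it *hsp90b1* was higher in DKO (0.44, edgeR adjusted p = 3.92e-03), as it was in all 16 libraries scaled by library size alone (0.47, adjusted p = 7.57e-03).

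Among the ER J proteins and the remaining Hsp70 gene, *dnajb12a*, which acts at the ER membrane in the disposal of misfolded proteins, was lower in DKO (log2 fold change -0.34, edgeR adjusted p = 0.0193), and scaling by library size alone ended that call (-0.19, adjusted p = 0.146). The 13 ER members that did not pass lay between -0.61 and 0.31. At an unadjusted p under 0.05, for which no share of all genes is given here, 4 ER members were lower and 1 was higher. DESeq2 called 1 lower and 0 higher.

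Of the 8 CCT subunits 1 passed the test. With TMM the log2 fold changes were all negative, from -0.35 in *cct8* to -0.02 in *cct3* (median -0.13), and their summed level was 2982 to 4308 CPM in DKO against 3549 to 4509 CPM in CTRL hearts, with medians of 3415 CPM in DKO and 3637 CPM in CTRL hearts. The lowest of them, *cct8*, had 183, 192 and 247 CPM in DKO against 196, 237 and 403 CPM in CTRL hearts, and its edgeR adjusted p was 0.0445 (SE 0.12). That call was lost in 10 of the 16 fits that left out 1 library, and without CTRL replicate 5, which alone held 403 CPM, the log2 fold change was -0.22 (adjusted p = 0.0870). It was lost with scaling by library size alone as well (-0.19, edgeR adjusted p = 0.201).

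At the other end, *cct3* had 444, 510 and 652 CPM in DKO against 499, 521 and 611 CPM in CTRL hearts, and DKO libraries lay on both sides of the CTRL range (log2 fold change -0.02, SE 0.09, edgeR adjusted p = 0.914). For *tcp1* the log2 fold change was -0.25 (SE 0.11, edgeR adjusted p = 0.0817), and leaving out DKO replicate 6 (-0.29, adjusted p = 0.0417) or DKO replicate 8 (-0.29, adjusted p = 0.0491) brought it past the threshold. The subunits moved together across libraries, since DKO replicate 6 held the highest DKO level of all 8, and CTRL replicates 5 and 7 held the highest CTRL level of 4 subunits each. The negative sign was not stable, as *cct2*, *cct3*, *cct4*, *cct5* and *cct6a* were above 0 with scaling by library size alone (0.01 to 0.13).

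Among cytosolic Hsp70 and Hsp90 genes the constitutive members had log2 fold changes near 0, and 3 of 5 inducible-type members were lower in DKO hearts. The constitutive Hsp70 gene *hspa8* (Hsc70) had 835, 935 and 1169 CPM in DKO against 897, 1035 and 1161 CPM in CTRL hearts, with a log2 fold change of -0.09 (SE 0.09, edgeR adjusted p = 0.531). The cytosolic Hsp90 gene *hsp90ab1* had 2371, 2521 and 3261 CPM in DKO against 2129, 2499 and 3641 CPM in CTRL hearts, with a log2 fold change of 0.03 (SE 0.12, edgeR adjusted p = 0.879). In both genes the ranges of the groups covered each other.

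The inducible-type Hsp70 genes, which heat shock factor turns on under stress, were expressed at low levels and varied widely between libraries. Levels of *hsp70.3* were 3.16, 6.24 and 20.4 CPM in DKO against 10.3, 18.01 and 33.5 CPM in CTRL hearts (log2 fold change -1.17, SE 0.37, edgeR adjusted p = 0.0231). Levels of *hsp70.2* were 3.43, 6.17 and 14.1 CPM in DKO against 7.54, 13.0 and 31.1 CPM in CTRL hearts (log2 fold change -1.15, SE 0.32, edgeR adjusted p = 0.0112). The groups overlapped in both genes, where DKO replicate 2 stood above the median of the CTRL libraries and DKO replicate 8 (8.27 CPM of *hsp70.2*, 14.6 CPM of *hsp70.3*) above the lowest CTRL library. Without DKO replicate 2 the decreases were larger, with log2 fold changes of -1.39 for *hsp70.2* and -1.47 for *hsp70.3*.

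The remaining inducible-type genes were *hsp70.1* (log2 fold change -1.15, edgeR adjusted p = 0.0177, under 5 FPKM), *hspa1b* (-0.98, adjusted p = 0.0733, but 0.0410 in DESeq2) and *hsp70l* (-0.70, adjusted p = 0.133). As *hsp70.1*, *hsp70.2* and *hsp70.3* are adjacent copies of 1 gene family, reads that align to more than 1 of them were not counted. The level of each is therefore uncertain, and the 3 changes are not separate observations. Summed over the 5 genes, the level was 14.7 to 59.1 CPM in DKO against 33.7 to 112 CPM in CTRL hearts, and CTRL replicates 3, 8 and 1 were the highest libraries at 112, 86.5 and 67.8 CPM. The J protein *dnajb1b*, a partner of inducible Hsp70, also had its highest CTRL level in replicate 3 (61.6 CPM), and it did not pass the test between groups (log2 fold change 0.02, SE 0.14, edgeR adjusted p = 0.929).

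**Figure D5:**
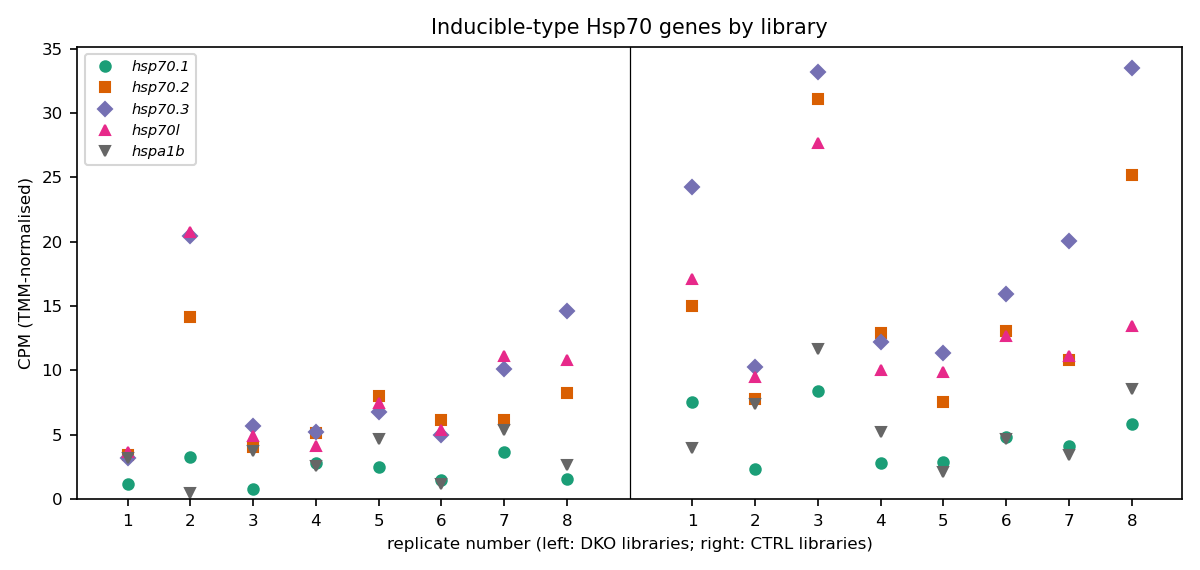
CPM (y axis) of the 5 inducible-type Hsp70 genes by replicate number (x axis), DKO libraries left and CTRL libraries right, 1 marker shape and colour per gene. DKO replicate 2 stands above the other DKO libraries in *hsp70.2* (14.1 CPM), *hsp70.3* (20.4 CPM) and *hsp70l* (20.7 CPM), and CTRL replicate 3 is at or near the top in all 5 genes.

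The Hsp70 relative *hspa12b*, which is expressed in endothelial cells, was lower in DKO hearts (log2 fold change -0.54, edgeR adjusted p = 0.0342). Its levels of 71.4 to 175 CPM in DKO against 107 to 211 CPM in CTRL hearts stood beside endocardial markers that summed to 695 to 1397 CPM in DKO against 1016 to 1499 CPM in CTRL hearts, and of those 10 markers 6 were lower and 1 was higher. Its call was lost in 8 of the 16 fits that left out 1 library, with an adjusted p of up to 0.0734, and with scaling by library size alone (adjusted p = 0.0788). The other 6 cytosolic Hsp70 and Hsp90 genes outside the inducible type lay between -0.18 and 0.14.

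Of 22 cytosolic J protein genes tested, 4 were lower and 2 were higher in DKO hearts, counts that lie near the shares over all genes (13.9% lower, 13.2% higher), and the 16 that did not pass lay between -0.29 and 0.22. The clearest decrease was in *dnajc12*, known in human as a co-chaperone of aromatic amino acid hydroxylases, with 17.4, 26.2 and 36.9 CPM in DKO against 38.2, 52.9 and 84.3 CPM in CTRL hearts. Its groups did not overlap, and the log2 fold change was -1.09 (SE 0.19, edgeR adjusted p = 2.01e-04).

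Lower at smaller levels were *dnajb5* (log2 fold change -1.43, edgeR adjusted p = 6.15e-03, 7 to 48 reads and no FPKM value), *dnajb2* (-0.78, adjusted p = 4.26e-03), a J protein of neurons in mammals, and *dnajb1a* (-0.41, adjusted p = 0.0361), a partner of Hsp70 in the heat shock response. The call of *dnajb1a* was lost in 10 of the 16 fits without 1 library and with scaling by library size alone (adjusted p = 0.148). The 2 higher genes were both of the cysteine string protein family, which guards synaptic vesicle fusion in neurons. These were *dnajc5gb* (log2 fold change 1.04, edgeR adjusted p = 8.45e-03, 5.84 to 18.3 CPM in DKO against 2.65 to 9.46 CPM in CTRL hearts) and *dnajc5aa* (0.48, adjusted p = 0.0240), and both stayed under 5 FPKM. A more abundant member of that family, *dnajc5ga* (mean 132 CPM in DKO, 148 CPM in CTRL hearts), did not pass and was not higher (-0.17, edgeR adjusted p = 0.170). The call of *dnajc5aa* was lost without DKO replicate 5 (adjusted p = 0.0574), CTRL replicate 3 (adjusted p = 0.05001) or CTRL replicate 7 (adjusted p = 0.0532). Markers of neurons summed to 31.3 to 81.3 CPM in DKO against 30.3 to 84.8 CPM in CTRL hearts, with 1 of 6 higher. Epidermal markers, of which 4 of 5 tested were higher, summed to 9608 to 20804 CPM in DKO against 2546 to 11768 CPM in CTRL hearts. The part of either set of markers in *dnajc5gb* and *dnajc5aa* was not tested.

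Of the 3 symbols that match by name only, *tcp11l2* was downregulated, with 30.2, 41.4 and 63.3 CPM in DKO against 59.7, 89.2 and 125 CPM in CTRL hearts (log2 fold change -1.08, SE 0.15, edgeR adjusted p = 1.90e-05), and the others did not pass. A further 11 members were too low to test. The alpha-crystallin gene *cryabb* and *hspb2*, *hspb8*, *dnaja3b*, *dnajb6b*, *dnajc28* and *dnajc3a* were listed at 0 reads in all 16 libraries. Among them only *dnaja3b* has an FPKM value, and *hspb2* and *cryabb* overlap each other in RefSeq, so 0 reads may not mean absent transcripts. The genes *cryaba*, *hspa12a.1*, *hspa12a.3* and *hspa14* had at most 19 reads in a library. Of the 35 genes looked up by name, 11 overlap another gene in RefSeq (GRCz12tu), a different assembly from the GRCz11 used for counting. Because no strand setting is given in the sources used here, reads of overlapping genes may have been left out or given to the wrong gene. Reads set aside as fitting more than 1 gene were 0.0287% to 0.0524% per library.

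Partner genes of these chaperones outside the members were counted by compartment as well. At the same adjusted p, 13.9% of all genes were lower and 13.2% higher in DKO hearts. Of 7 further mitochondrial folding genes tested, 4 were lower in DKO (median log2 fold change -0.52), namely the exchange factors of *hspa9*, *grpel1* (-0.69) and *grpel2* (-0.52), the mitochondrial Hsp90 *trap1* (-0.61) and the protease subunit *clpp* (-0.62). Of 15 further ER folding genes, 0 passed in edgeR (median -0.07). At an unadjusted p under 0.05, for which no share of all genes is given here, 1 was higher, and DESeq2 called 1 higher. Prefoldin, which hands actin and tubulin to CCT, and other helpers of the chaperonin had 3 of 7 genes lower (*vbp1* -0.47, *pfdn6* -0.43, *pdcl3* -0.33).

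Of 17 heat shock factors and cytosolic co-chaperones 4 were lower and 1 was higher (median -0.10), where 13.9% of all genes were lower and 13.2% higher. The lower ones were the muscle Hsp90 gene *hsp90aa1.1* (-0.63), which folds myosin, and the co-chaperones *bag2* (-1.12), *ptges3a* (-0.49) and *bag3* (-0.63), a partner of small heat shock proteins in muscle. Heat shock factor *hsf1* did not pass (-0.18, SE 0.11, edgeR adjusted p = 0.241). These lists were compiled with earlier results of the data known, and their counts are a description.

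With library scaling on the cardiomyocyte markers instead of TMM, the log2 fold changes of all genes shifted by a median of 0.86, and 1.57% of all genes were then lower and 73.9% higher in DKO hearts. Of the 75 members 3 were lower on this scale, *hspb11* (-3.82), *hspb9* (-1.06) and *hspb1* (-0.52), and 45 were higher. The cardiac gene *hspb7* was at -0.14, *hspe1* at -0.08, *hspd1* at 0.01 and *hspa9* at 0.24, and none of these 4 was lower in DKO on that scale. That scale takes the markers to be unchanged in each cardiomyocyte, which was not tested. With TMM the log2 fold changes of the markers themselves ran from -2.10 (*csrp3*) to 0.07 (*kcnh6a*). Such a scaling shifts all genes nearly alike, so the ratios within libraries given above do not depend on it. The part of the cell make-up of the pools in those ratios was not tested. Scaling by library size alone gave 17 members lower and 4 higher, beside 9.96% of all genes lower and 22.2% higher.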

How the data were processed

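Poly(A) RNA of pooled 48 hpf hearts was sequenced as paired reads of 150 bp after ultra-low input library preparation. Per the labels and methods, the authors used STAR 2.6.1a with GRCz11 for alignment and HTSeq 0.11.2 for the deposited counts, which are whole reads per gene, not normalized. FPKM values were deposited by the authors and served only for the threshold of 5 FPKM. Reads that the counting assigned to no gene (59.6% to 65.6% per library) were left out. With the strand setting unknown, these may include reads on the opposite strand of a gene. Reads that aligned to more than 1 place were left out as well (13.9% to 16.4% in DKO and 12.8% to 14.5% in CTRL libraries). Replicates differed by far more than sampling noise (lowest chi-square per gene 20.5 in DKO, 10.3 in CTRL), so all 16 were kept.

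Counts were tested with edgeR 4.0.16 (TMM, filterByExpr, robust quasi-likelihood F-test) in R 4.3.3, with adjusted p under 0.05 as the threshold, and DESeq2 1.42.0 as an alternative. Scripts were tested on simulated data. Totals limit precision, and without molecular identifiers the reads are not independent molecules. Ratios of core chaperones were compared by exact permutation over 12870 splits. Full values were given for the 5 largest called decreases, 7 core chaperones and the extremes of the CCT subunits. The genes *hspb3*, *hspb7*, *hspb6*, *dnajc12*, *dnajc15*, *dnaja3a*, *tcp11l2*, *hsp70l*, *hspa1b*, *dnajb1b*, *hspa12b*, *dnajc5gb* and *dnajc5ga* received values beyond that rule after the values were seen. The members and lists were chosen with earlier results of these data known. RefSeq (GRCz12tu) supplied names and neighbours only and held 85 of 86 symbols. Figures were drawn with matplotlib 3.10.9. Another symbol that fits the pattern is not reported here.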

Additional observations from a re-analysis of the deposited data

Results flagged for a closer look

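In 6 of 82 groups of 8 libraries, 1 library lay apart by a gap larger than Dixon's critical share of the range, and chance alone gives about 1 in 20. CTRL replicate 5 accounts for 4 of the 6. It was the highest CTRL library in *cct8* (403 CPM, next 291 CPM), *hsp90ab1* (3641 CPM, next 2663 CPM) and *hsp90b1* (629 CPM, next 443 CPM), and the lowest in *dnajb5* (0.812 CPM, next 3.07 CPM). Of the 75 tested members 22 had their highest CTRL level in this library and 15 their lowest, but other CTRL libraries had like counts (19 highest in replicate 3, 21 lowest in replicate 4 and 17 lowest in replicate 2). Its sum of further ER folding genes was 6729 CPM, against 4239 to 5075 CPM in the other CTRL libraries.

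DKO replicate 6 was the highest DKO library in *hsp90ab1* (3261 CPM, next 2713 CPM) and held the highest DKO level of all 8 CCT subunits. DKO replicate 2 was the highest DKO library in *hsp70.2* (14.1 CPM, next 8.27 CPM). No label or file used here sets these libraries apart, and the cause was not tested.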

How the results depend on the processing

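The count of 22 lower members was 24 with DESeq2, 17 with library size alone and 20 with the replicate block, and 3 with cardiomyocyte marker scaling. The count of 2 higher members was 4 with library size alone, 45 with marker scaling and 1 to 3 with 1 library left out, and 11 downregulated and 0 upregulated members were 2 and 23 with marker scaling. Without the FPKM threshold 16 were downregulated and 1 was upregulated, and no share of all genes is given here for that setting. With library size alone the median log2 fold change was -0.0266 in the cytosol and -0.00261 in the ER, and with marker scaling it was 0.68 in the cytosol, 0.70 in the ER, 0.18 in mitochondria, -0.52 over small heat shock genes, 0.73 over CCT subunits and -0.18 over inducible-type Hsp70 genes. With library size alone these genes turned positive: *cct2* 0.12, *cct3* 0.13, *cct4* 0.0062, *cct5* 0.0195, *cct6a* 0.0655, *hspa5* 0.16 and *hspa8* 0.0599. With marker scaling positive values were found for *cct2* 0.83, *cct3* 0.85, *cct4* 0.72, *cct5* 0.73, *cct6a* 0.77, *cct7* 0.71, *cct8* 0.52, *tcp1* 0.60, *dnaja3a* 0.13, *dnajb12a* 0.51, *dnajb1a* 0.44, *dnajb2* 0.0636, *dnajc15* 0.0471, *dnajc30b* 0.34, *hspa12b* 0.23, *hspa5* 0.85, *hspa8* 0.78, *hspa9* 0.24 and *hspd1* 0.0089. Leaving out 1 library moved *cct2* between -0.0792 and 0.0209, *cct3* between -0.0657 and 0.0137, *hsp90ab1* between -0.0169 and 0.12 and *hspa5* between -0.0817 and 0.0886. The cause of these shifts was not tested.

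Replicate numbers gave no sign of pairing between the libraries (correlation of deviations -0.27 to 0.11, with 0 of 8 DKO libraries closest to their own number). That check cannot exclude a pairing by clutch, since other differences between pools may hide it. With the replicate block *hsp70.1* (edgeR adjusted p = 0.0793) and *dnajb1a* (0.0507) were lost, and *hsp90b1* was gained (0.0485). The log2 fold change of *hspa5* was then 0.0118, and no other member named crossed the adjusted p of 0.05. With the fold and FPKM thresholds added, 13 members were downregulated with the block, against 11 without it. Without the filter on low counts *cct8* did not pass (edgeR adjusted p = 0.0558). Members with at most 48 reads in any library, such as *hspb6*, *hspb15* and *dnajb5*, are limited by depth.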
